A study of Mus musculus with 21 samples.

Results

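The sites described here are coding single-nucleotide variants (SNVs) of mouse embryonic stem cells (ESCs) that were listed in some ESC libraries and not in others. A site entered when it was called in 2 to 9 of the 10 ESC exome libraries and was annotated as missense, synonymous, stop-gain or stop-loss. There were 347 such sites among 4358 ESC sites, of which 732 were coding. The remaining coding sites were called in 1 library (171) or in all 10 (214). The sites were thus chosen by the number of libraries that called them and by being coding, and the distribution of that number is given only as a description. The choice did not use which libraries or conditions called a site, nor whether a coding site was missense or synonymous.

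The study compared genome stability between ESC culture conditions, with 10 ESC lists and 8 tumour lists from genomic DNA of strain C57BL6X129S6F1. Every ESC list was called against the same library of mouse embryonic fibroblasts (MEFs). All ESC media held leukaemia inhibitory factor (LIF, 1000 IU). SL had KO-DMEM with 15% serum. The other media were based on N2B27: 2iL with 3 µM Chir99021 (a GSK3 inhibitor) and 1 µM PD0325901 (a MEK inhibitor), A2iL with 3 µM Chir99021 and 1.5 µM CGP77675 (a Src inhibitor), and LCDM with 3 µM Chir99021 and 2 µM each of the additives labelled Dim and Mih. All of these were kept with feeder cells. In 2iL-F the feeders were omitted from 2iL cultures. There were 2 libraries per condition, labelled 3 and 5. The labels do not say whether these were separate cultures, so p-values measure only the spread between these libraries, which may be technical. The tumours came from mice made from ESCs by tetraploid complementation, and what P9 and P14 mean in their names is not stated.

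As background, exome reads are assigned to the genome by sequence similarity. Segmental duplications are stretches of the genome present in near-identical copies, and reads of one copy can align to another. A retrocopy is a processed copy of a messenger RNA inserted elsewhere in the genome, without introns, and it can differ from its parent gene at several bases. The vomeronasal (Vmn) and olfactory (Olfr) receptor genes form large families of similar genes that sense pheromones and odours. In an F1 animal of 2 strains, a germline difference between them is carried on one of the paired chromosomes.

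Sequence context could be read for 2 members whose positions fell within promoter windows of RefSeq (GRCm38.p6, the assembly of mm10). They are shown because each is a protein change close to the start of a duplicated or multigene-family gene. Each line is the coding strand (minus), 27 bases, 5′ to 3′, with the reference base of the SNV in capitals:
Scgb2b12 I4T, chr7:32327206-32327232: accatgaaggggaTacttcttctgctg
Olfr462 V13I, chr11:87889845-87889871: ggtgtcagagtttGtcttcctgggctt
The first, in exon 1 of a secretoglobin gene inside a segmental duplication, was called in SL 3, A2iL 5 and 2iL-F 3 at fractions of 0.0444 to 0.0727. The second, in exon 1 of an olfactory receptor gene, was called in 2iL 3, 2iL 5 and LCDM 5 at 0.0875 to 0.167. Both genes held a second member, Scgb2b12 L35V in 4 libraries and Olfr462 M278L in 2, and no library listed both sites of either gene.

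The 347 sites made 1632 calls in 262 genes or joined gene names. They comprised 193 missense, 151 synonymous and 3 stop-gain sites, and no stop-loss site. The annotation placed 139 sites (40.1%, 108 genes) inside segmental duplications and 208 (154 genes) outside, and 13 sites lay in repeats. More than 1 member was found in 69 genes. By library, 149 to 179 members were called at median depths of 110 to 165 reads. The ESC lists were spaced: the smallest gap between neighbouring calls of a list ranged from 10017 to 10033 bp over the 10 ESC lists, whereas in every tumour list it was 1 bp. An ESC list thus held at most 1 call within 10 kb, and 2 sites closer than this could not stand in the same list. The lists give no read depth for sites that were not called.

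The number of members fell from 86 called in 2 libraries and 64 in 3 to between 28 and 39 for each number from 4 to 9. The alternative fraction, the share of reads with the variant base, had a median of 0.0777 over sites called in 2 libraries and 0.190 over sites called in 9. Just outside the rule, the medians were 0.0759 for coding sites called in 1 library and 0.292 for those called in all 10. The share of sites inside duplications was 34.9% at 2 libraries and 42.9% at 9, against 33.3% at 1 and 21.5% at 10.

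**Figure D1:**
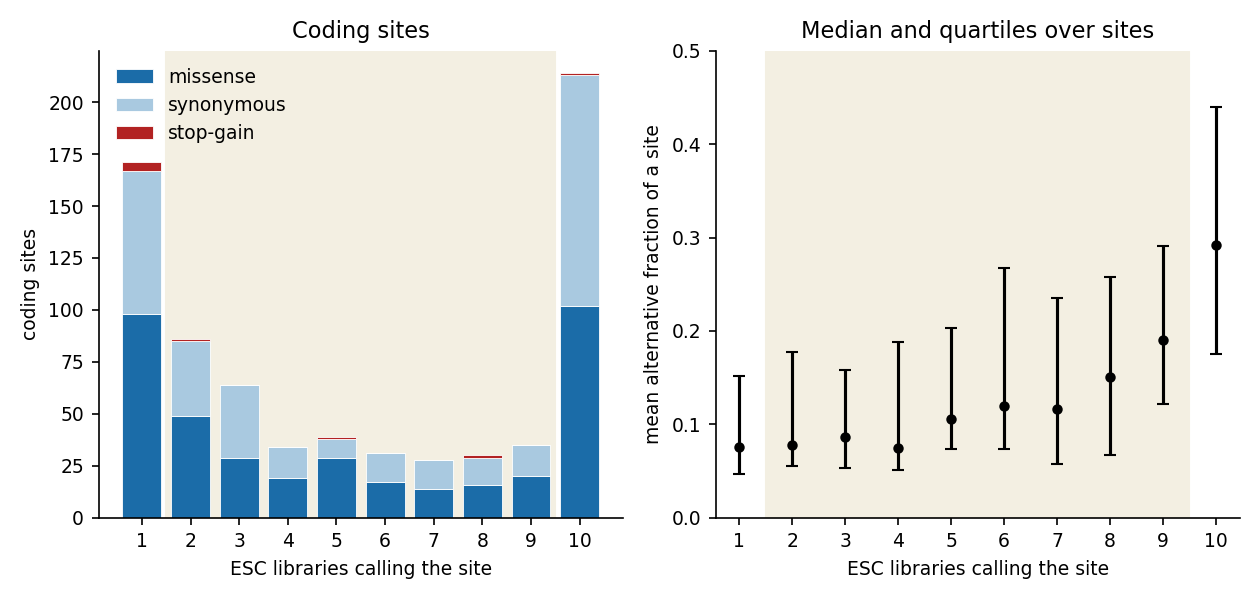
Coding ESC sites by the number of ESC libraries that called them (horizontal axes, 1 to 10), with the sites described here shaded. Left, stacked counts of missense, synonymous and stop-gain sites. Right, the median and quartiles over sites of the mean alternative fraction, which stood at 0.0777 for 2 libraries and 0.190 for 9.

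Most member calls were at low fractions. The median over the 1632 calls was 0.122 (quartiles 0.0641 and 0.246, range 0.0228 to 0.833), 43.0% of calls were below 0.1 and 11.9% were at 0.4 or above. The median call rested on 131 reads, 15 of them with the variant base. Depth ranged from 4 to 1217 reads, 41 calls had fewer than 20 reads, and the fewest variant reads were 2. At 19 members the MEF control also held variant reads, at no more than 1.79% of its reads. Over the 163 members called in 5 or more libraries, the median SD of a site between its calling libraries was 0.0249 and the SD between the site means was 0.146. Libraries in which a site was not called have no value here, so low values are missing from this spread.

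Coding members had lower fractions than noncoding ESC sites called in 2 to 9 libraries (1910 sites). The library medians averaged 0.124 ± 0.00956 (SD, n = 10 libraries) for coding calls and 0.235 ± 0.0116 for noncoding calls. The coding value was the lower of the pair in all 10 libraries (exact permutation test of the paired differences, two-sided, adjusted p = 0.0026 over 4 paired comparisons). With calls of at least 20 reads the difference shrank from -0.111 to -0.0558, in the same direction (exact permutation, adjusted p = 0.00195). The 10 libraries share many of the same sites and are not independent draws of sites, which holds for each such paired test below.

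Members in segmental duplications changed the protein more often than members outside them. Inside, 90 missense stood against 47 synonymous sites, a ratio of 1.91 (95% Wilson interval 1.35 to 2.72). Outside, 103 missense stood against 104 synonymous sites, a ratio of 0.990 (0.755 to 1.30). These intervals cover counting error only, since sites of a gene are not independent. Per library, missense and stop-gain calls made up 66.8% ± 4.15 (SD, n = 10) of member calls inside and 50.1% ± 3.77 outside, higher inside by 16.7 percentage points in 10 of 10 libraries (exact permutation test, adjusted p = 0.0026).

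The ratio was above 1 in duplicated genes within and outside the receptor families. Members in vomeronasal and olfactory receptor genes had a ratio of 1.80 inside duplications (36 to 20) and 1.00 outside (11 to 11). All other genes had 2.00 inside (54 to 27, interval 1.27 to 3.16) and 0.989 outside (92 to 93, interval 0.742 to 1.32). For coding sites called in 1 library the ratio was 2.00 inside and 1.20 outside, and for those called in all 10 it was 1.14 and 0.867, with intervals that overlapped those of the members. Transitions made up 57.6% of the members inside duplications and 72.1% of those outside.

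**Figure D2:**
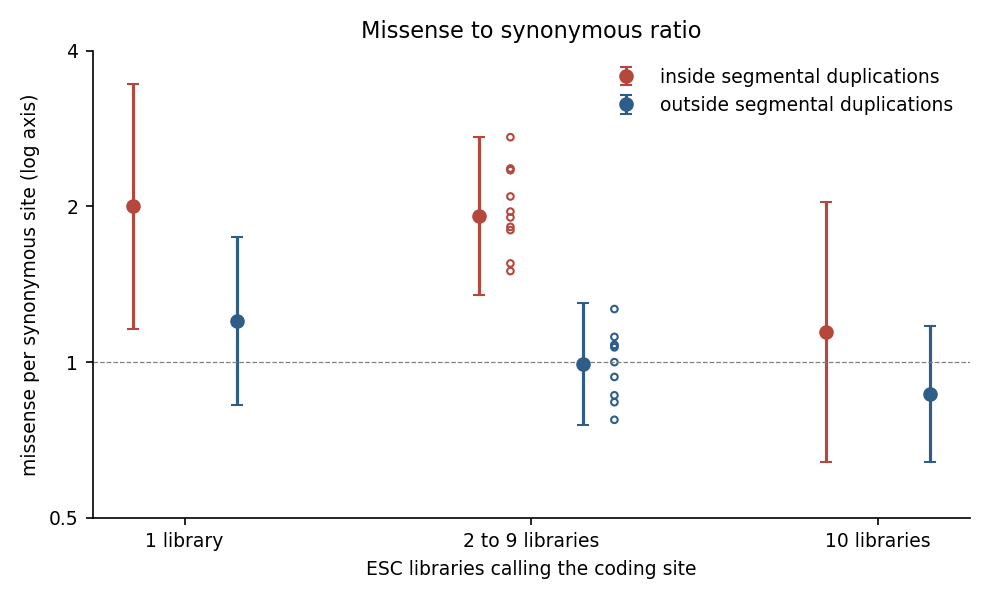
Missense sites per synonymous site (log axis) for coding ESC sites called in 1, 2 to 9 and 10 libraries, inside (red) and outside (blue) segmental duplications. Filled points with bars are ratios over distinct sites with 95% Wilson intervals, and open points are the 10 libraries. For sites called in 2 to 9 libraries, the ratio was 1.91 inside and 0.990 outside.

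The fraction also differed with duplication, and the difference depended on which duplications were counted as inside. The library medians averaged 0.108 ± 0.00652 (SD, n = 10) inside and 0.137 ± 0.0201 outside, and the inside value was the higher of the pair in 1 of 10 libraries (exact permutation test, adjusted p = 0.0078). With only similarity scores of at least 0.98 counted as inside, members in lower-scoring duplications joined the outside group. The difference then turned to 0.0072 higher inside and did not pass (exact permutation, adjusted p = 0.383). The 93 members with a score under 0.98 had a median call fraction of 0.0957, the 46 members at 0.98 or more 0.128, and the 208 members outside 0.138. Median depth was 223, 217 and 93 reads in these classes, and the part of depth in the difference was not tested.

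Receptor genes were the most frequent families. Vomeronasal receptor genes held 56 members (16.1%) in 40 genes, 49 of them inside duplications, with a median site fraction of 0.114. Olfactory receptor genes held 24 members in 21 genes, 9 inside duplications, at a median of 0.0485. The 30 members in genes named as Gm or Rik models had a median of 0.0817, and 24 of them lay inside duplications. They made up 8.65% of members and 7.79% of all coding ESC sites. Smaller groups were MHC class I genes (H2-, 6 members), Psg pregnancy-specific glycoproteins (5), Klr natural killer receptors (5) and Naip genes of the inflammasome (4). Their shares of all coding ESC sites were not computed, so these counts do not show that the groups are particular to the members. The vomeronasal and olfactory receptors, taken jointly only, made up 23.1% of members and 18.03% of all coding ESC sites. Chromosome 7, where many of these families lie, held 69 members (19.9%), against 17.6% of all coding ESC sites.

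Vmn1r174 on chromosome 7 illustrates a duplicated receptor gene. Its 4 missense members, all in exon 1, were I109V (position 23754235), V148F (23754352), L228M (23754592) and P283A (23754757). I109V was called in 2 libraries at a mean fraction of 0.310, V148F in 3 at 0.264, L228M in 2 at 0.293 and P283A in 3 at 0.271. Their levels were similar, and each of the 10 libraries held exactly 1 of the 4 sites. In Vmn2r33, by contrast, P585P had fractions of 0.427 to 0.506 in 6 libraries and P685S, 298 bp away, 0.154 to 0.178 in the other 4.

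Genes outside the receptor families were looked up in lists for known functions. The cell cycle list (45 genes) had 7 members in 4 genes: Cdk4, the kinase of the G1 phase, Mad2l1 of the spindle checkpoint, the cyclin gene Ccnb2 and Fbxo5, an inhibitor of the anaphase-promoting complex. The pluripotency list (26 genes) had 1, in the homeobox gene Nanog, which is 0.288% of members against 0.273% of all coding ESC sites. Ribosomal protein genes had 4, in Rps2, Rpsa and Rpl32l. A list of other abundant genes with many processed copies had members in Eef1a1, Hmgb1, Slc25a3 and Tuba1b. The lists for DNA repair and replication (44 genes) and for DNA methylation and chromatin (35 genes) had no member, with 1 and 2 coding sites among all ESC sites. Shares of all members were 2.02% for the cell cycle and 1.15% for ribosomal proteins, against 1.23% and 0.546% of all coding ESC sites.

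Names of pseudogenes in the RefSeq gene table gave another description. Of 158 gene symbols of members outside duplications, 12 (7.59%) had at least 1 pseudogene named after them. The share was 1.58% of all protein-coding genes, 2.80% of genes with a coding site outside duplications called in 1 library, and 4.24% for sites called in all 10. Hmgb1, Rps2 and Rpsa had 12 named pseudogenes each and Nanog had 2. The remaining genes outside duplications with a named pseudogene were Ccnb2, Kars, Mnd1, Dnd1, Ctsm, Naip1, Smarce1 and Sycp1. Inside duplications 3 of 117 symbols (2.56%) had one, Cdv3, Eef1a1 and Obox3. A name does not show that reads of the pseudogene were aligned to the gene. Of 275 member symbols, 250 matched the table and 16 more matched only as synonyms.

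The libraries that lacked a member often held another call in its gene. Over all members there were 1838 combinations of a site and a library lacking it, and in 918 (49.9%, Wilson interval 47.7 to 52.2%) that library had a call of the same gene within 10 kb. This interval covers counting error only and is too narrow. Combinations of the same site are not independent, and members of a gene can be each other's neighbours. The median distance was 183 bp (quartiles 73 and 1151). Within 1 kb the share was 37.2% and within 100 bp 17.4%. It was 53.4% for members inside duplications and 47.7% outside. The neighbouring call lay at a lower position in 495 cases and at a higher one in 423.

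Most of these neighbours were themselves coding. Of the 918 neighbouring calls, 703 (76.6%) were coding, 152 intronic, 47 in 3′ untranslated and 8 in 5′ untranslated regions and 8 at splice sites. Members made up 631 of them and sites called in 1 library 105. None was a site called in all 10 libraries, as the spacing requires.

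Noncoding sites had fewer neighbours in the same gene, though taken all together they had as many neighbours of any kind. The share of lacking libraries with a same-gene call averaged 50.1% ± 2.67 (SD, n = 10 libraries) for coding members and 14.4% ± 0.433 for noncoding sites called in 2 to 9, higher in 10 of 10 libraries (exact permutation test, adjusted p = 0.0026). Many noncoding sites have no gene name. With only the 805 that have one, an alternative chosen after seeing the data, the noncoding share was 34.4% and the difference 15.6 percentage points, in the same direction in 10 of 10 libraries (exact permutation, adjusted p = 0.0026). Counting a neighbour in any gene or none, the shares were 52.7% over coding and 52.5% over all noncoding combinations. The difference of 0.285 percentage points did not pass (exact permutation, adjusted p = 0.756). For the 805 noncoding sites with a gene name this share was 37.0%, lower than that of coding members, and this difference was not tested.

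Members fell into sites whose lacking libraries all held a same-gene call (151 sites, 43.5%), some of them did (68) or none did (128, 36.9%). Fractions differed between these classes: the median over calls was 0.20 where all did, 0.0702 where some did and 0.0754 where none did. Outside duplications, the medians with all and with none were 0.246 and 0.0806, and inside they were 0.159 and 0.0648. Of the 36 members with a mean fraction of 0.4 or more, 32 had a same-gene call in all lacking libraries, 26 of them outside duplications. The other 4 were Zfr2 R523C, Gata6 D163E, Cox8a S28S and Hmgb1 D190E. These classes are not free of the selection. Coding sites called in all 10 libraries, whose median fraction was 0.292, are left out by the rule. A member lacking in 1 library could fall only in the class with all or with none. The differences in fraction between the classes were not tested.

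**Figure D3:**
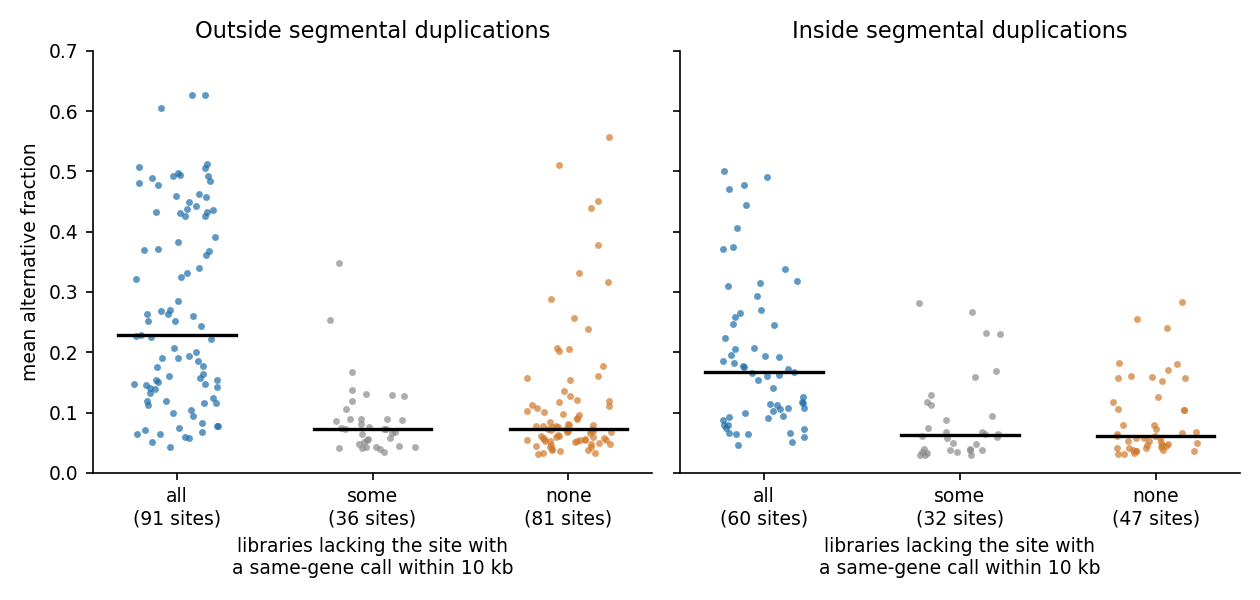
Mean alternative fraction of each member (points) outside and inside segmental duplications, split by whether all, some or none of the libraries lacking it held a call of the same gene within 10 kb. Black lines are medians over sites: outside 0.228, 0.0730 and 0.0735, inside 0.167, 0.0622 and 0.0610.

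The missense to synonymous ratio did not follow this split in order. Outside duplications it was 0.731 (38 to 52, Wilson interval 0.482 to 1.11) where all lacking libraries held a same-gene call, 1.57 (22 to 14, 0.814 to 3.03) where some did and 1.13 (43 to 38, 0.734 to 1.74) where none did, and these intervals overlapped. Inside duplications it was 1.46 (35 to 24, 0.872 to 2.44), 1.46 (19 to 13, 0.732 to 2.92) and 3.60 (36 to 10, 1.81 to 7.16), again with overlapping intervals. No test was made of these differences.

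A stricter form of the pattern is a pair of sites of a gene, within 10 kb, whose libraries do not overlap and together make up all 10. There were 67 such pairs in 65 genes, 42 outside and 25 inside duplications, and in 31 both sites were members. The 233 pairs of sites in a gene within 10 kb that involve a member were all in separate libraries, which the spacing fixes. The mean fractions of both sites differed by less than 0.05 in 45 of 67 pairs (median difference 0.0300), a description without a reference value, since many members are at low levels. Among the other 22 pairs were Srfbp1 (0.435 and 0.0548), Vmn2r33 (0.166 and 0.470) and Itgad (0.307 and 0.105). Pearson's r of the paired fractions was 0.780 over the 67 pairs, a description of sites that share libraries. Their median distance was 257 bp (1 to 8933), and 18 pairs lay within 100 bp. In 12 pairs both fractions were at least 0.4, and in 29 both were under 0.2. Of 60 pairs called unequally often, the more often called site had the higher fraction in 35, the greater depth in 34 and more variant reads in 40.

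Cdk4 on chromosome 10 carried such a pair in exon 2. A23T (position 127064302) was called in 8 libraries with a lowest, median and highest fraction of 0.2, 0.266 and 0.333, at 62 to 93 reads. V51I (127064386), 84 bp away, was called in A2iL 3 at 0.243 and in LCDM 5 at 0.299. The ranges of both sites overlapped, and every library had exactly 1 of them.

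Mad2l1 on chromosome 6 had the synonymous A6A in exon 1 (position 66535544) and T176A in exon 5 (66539851), 4307 bp apart. A6A had fractions of 0.345, 0.364 and 0.386 (lowest, median, highest) in 7 libraries. T176A had 0.344 in SL 5, 0.348 in 2iL 3 and 0.422 in LCDM 5. Both were at about the same level although they lie in different exons.

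Ccnb2 on chromosome 9 was divided by culture condition. C314C in exon 7 (position 70410154) was called in all 8 libraries of SL, A2iL, LCDM and 2iL-F, with fractions of 0.125, 0.233 and 0.471 (lowest, median, highest) at 17 to 36 reads. T294M, 61 bp away in the same exon (70410215), was called in both 2iL libraries and nowhere else, at 0.167 and 0.0702 with 6 and 4 variant reads. With such spaced lists, T294M cannot be called absent from the other 8 libraries, since each of them already held a call there.

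Nanog P72T (chromosome 6, position 122711600, exon 2) was called in 9 libraries at fractions of 0.143, 0.263 and 0.359 (lowest, median, highest). The library without it, 2iL 5, held P61H instead, 32 bp away at 0.333. Rps2, a protein of the small ribosomal subunit, showed the pattern at low fractions and high depth. On chromosome 17 in exon 4, R187L (24721153) was called in 6 libraries at 0.0686, 0.0763 and 0.0930 (lowest, median, highest). G171E (24721105), 48 bp away, had 0.0743 (2iL 5), 0.0746 (LCDM 3), 0.0891 (LCDM 5) and 0.0733 (2iL-F 5). Depths were 353 to 505 reads, and the ranges of both sites overlapped.

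Several pairs were near a fraction of 0.5. In Fam234a (chromosome 17, exon 12) L500L had 0.3125, 0.468 and 0.548 (lowest, median, highest) in 6 libraries, and L489F, 33 bp away, was read at 0.488 (2iL 5), 0.533 (LCDM 3), 0.447 (2iL-F 3) and 0.510 (2iL-F 5). In Ezh1, a histone methyltransferase gene (chromosome 11, exon 9), the synonymous C310C was called in 8 libraries at 0.321, 0.449 and 0.5625 (lowest, median, highest). C310F, at the adjacent base of the same codon, was called in 2iL 3 at 0.474 on 19 reads and in 2iL-F 5 at 0.387 on 31, so that 1 library remained when at least 20 reads were required. The protein change given for each is that of its base alone. If both bases changed on one molecule, the residue would be the one that the C310F label states.

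Rrbp1, which encodes a ribosome-binding protein of the endoplasmic reticulum, had 2 complementary pairs on chromosome 2. A1269E was called in 8 libraries at 0.362, 0.506 and 0.597 (lowest, median, highest), and A1357D in LCDM 5 at 0.4615 and in 2iL-F 3 at 0.4375. A797A stood in 6 libraries and T718T in the other 4, at means of 0.426 and 0.432. A1357D rested on 13 and 16 reads and was not called in any library once 20 reads were required.

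Dlat, a subunit of the pyruvate dehydrogenase complex, was split over 3 synonymous sites on chromosome 9. S353S was called in 2iL 3 at 0.45, A2iL 3 at 0.4615 and A2iL 5 at 0.366. K295K was called in SL 5 at 0.483, LCDM 3 at 0.426, 2iL-F 3 at 0.5 and 2iL-F 5 at 0.516. P32P was called in SL 3 at 0.6, 2iL 5 at 0.667 and LCDM 5 at 0.611, on 10 to 18 reads. Together they gave every library 1 call. Outside duplications, 53 loci (57 gene symbols, as joined names share a site) had a call of the gene within 10 kb in every ESC library although no such site was in all 10.

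**Figure D4:**
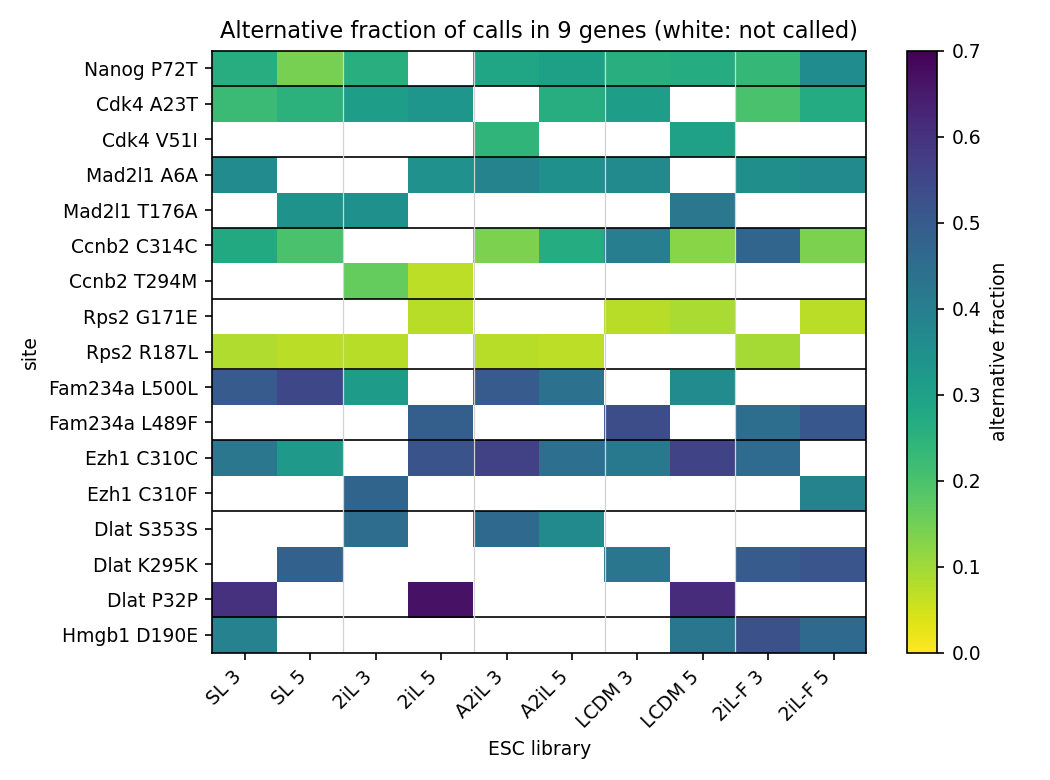
Alternative fraction (colour, 0 to 0.7) of 17 members of 9 genes (rows) in the 10 ESC libraries (columns, ordered by condition), white where the site was not called. Within Cdk4, Mad2l1, Ccnb2, Rps2, Fam234a, Ezh1 and Dlat each library has exactly 1 coloured cell, Nanog P72T is missing in 2iL 5, and Hmgb1 D190E is called in 4 libraries only.

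Some genes with several members showed the same arrangement. Others did not, such as Slc25a3 and Psmb3, where some lacking libraries held no call of the gene within 10 kb. Tmcc1 had 2 complementary pairs, S601S with T577A at means of 0.0506 and 0.0581, and K344K with H213H at 0.164 and 0.155. Hist1h2bc, a histone H2B gene, had 3 synonymous members at 0.0651 to 0.0998. With P104P, a site called in 1 library and thus not a member, they gave every library 1 call. In Tmcc1, levels were alike within a pair and differed between the pairs.

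Other members had no neighbouring call to fill their missing libraries. Outside duplications, 6 members were called in 9 libraries while the tenth had no call within 10 kb. Zfr2 R523C (chromosome 10, position 81246596, exon 11) had fractions of 0.273, 0.442 and 0.561 (lowest, median, highest), Mrpl19 G39D, in a mitochondrial ribosomal protein, had 0.171, 0.340 and 0.4615, and Rest R1043H, in a repressor of neuronal genes, had 0.0882, 0.182 and 0.261. Vcpkmt S76S had a mean of 0.206, Arpp19 P82R 0.0912 and Serpina3m F246L 0.0790. In the libraries that called them, Rest R1043H rested on 3 to 12 variant reads.

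Hmgb1 D190E (chromosome 5, position 149048815, exon 5), in a chromatin-binding protein, was called in SL 3 at 0.391, LCDM 5 at 0.426, 2iL-F 3 at 0.526 and 2iL-F 5 at 0.4615, on 54 to 65 reads. The other 6 ESC libraries had no call within 10 kb of it, and the MEF control had 0 variant reads of 54. Of the 36 members at a mean fraction of 0.4 or more it was called in the fewest libraries among those with no same-gene neighbour.

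The 3 stop-gain members were in Sub1, a transcriptional coactivator, and in 2 vomeronasal receptors. Sub1 R47X (chromosome 15, position 11991015, exon 3) was called in SL 5 at 0.147, A2iL 3 at 0.175, LCDM 3 at 0.190, LCDM 5 at 0.198 and 2iL-F 3 at 0.214, and every library lacking it held another Sub1 call. Vmn2r43 S727X (chromosome 7, position 8244983, exon 6) was called in 8 libraries at 0.128, 0.133 and 0.166 (lowest, median, highest) on 518 to 781 reads. Vmn2r92 W468X (chromosome 17, position 18168829, exon 4) was called in 2 at 0.0337 and 0.0482.

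The culture conditions differed little in their members. The 2iL libraries had 176.5 ± 3.54 member calls, A2iL 161 ± 8.49, 2iL-F 160 ± 7.07, SL 159.5 ± 4.95 and LCDM 159 ± 14.1 (mean ± SD, n = 2 libraries each). No difference past the threshold was found in this number (exact permutation F test, one-sided, p = 0.340), in the median fraction of member calls (p = 0.451), in their protein-changing share (p = 0.402) or in their share inside duplications (p = 0.0910), all exact permutation tests over 945 partitions, with adjusted p of 0.228 to 0.451 over 5 tests that include the sharing of members. The 2iL libraries had 16.6 more member calls than the mean of the other 8 and were the 2 with most. The exact permutation p was 0.0222, the smallest that 2 against 8 libraries can give, and 0.111 after adjustment over the 5 conditions. The duplication share of A2iL was 43.4% ± 2.10, against 40.2% in the others (exact permutation, adjusted p = 0.222). Without library SL 3 the F test of the duplication share gave p = 0.0317 (exact permutation).

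Libraries of the same condition shared slightly more members on average than other libraries. The difference did not pass after adjustment, and its size changed with the library left out. The Jaccard index (shared members over the union) averaged 0.405 for the 5 same-condition pairs and 0.375 for the 40 others, a difference of 0.0301 (exact permutation test, two-sided, p = 0.0349, and 0.175 adjusted over 5 tests). It was 0.464 for A2iL, 0.435 for 2iL-F, 0.418 for SL, 0.406 for 2iL and 0.303 for LCDM, which lay below the lowest of the other pairs (0.316). With a library of SL, 2iL, A2iL or 2iL-F left out, the difference was between 0.0158 and 0.0332. It was 0.0503 without LCDM 3 and 0.0525 without LCDM 5.

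Members restricted to a condition were few. Of the 86 members called in exactly 2 libraries, 14 were called in both libraries of 1 condition: 2iL had 8, LCDM 4, SL and 2iL-F 1 each and A2iL 0. This is 2.8 for each same-condition pair and 1.8 for each other pair of libraries. Outside duplications, 2iL had Anapc1 C1586C, Ccnb2 T294M, Cops2 E225E, Epc2 Q588Q, Micall2 G234R, Nsrp1 A196V and Olfr1280 S133S, at mean fractions of 0.0328 to 0.118. LCDM had Arpp21 T390M, Lca5l D142D, Nol8 E464K and Slc7a6os S263C, at 0.203 to 0.288. SL had Gpatch8 E837E at 0.108 and 2iL-F had Slc4a10 R30H at 0.128. Of these 13, Ccnb2 T294M was the site whose lacking libraries held a same-gene call. Arpp21 T390M remained in 1 library when at least 20 reads were required.

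A few members also appeared in the tumours, whose lists were called against another control (wild-type blood), were not spaced and mostly hold sites with a dbSNP identifier, which no ESC call has. Of the 347 members, 38 (10.95%) were listed in at least 1 of 8 tumours, against 11.2% of coding sites called in all 10 ESC libraries and 8.19% of those called in 1. Outside duplications lay 28 of them. By tumour, 20 to 29 members were listed, except LCDM-P9 replicate 2, which listed 1, Sub1 R47X. That stop-gain site was in all 8 tumours, at a mean fraction of 0.225.

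In absolute terms, levels in the tumours were close to those in the ESCs. The mean fractions differed by less than 0.1 for 37 of 38 members (median difference 0.0141), and were higher in the tumours for 21. This is a description without a reference value, since many of these members are at low levels. Itgad D1080Y, for example, had 0.0407 to 0.0472 in ESC libraries and 0.08 to 0.125 in tumours. Pearson's r of the means was 0.953 over these 38 sites, a description of sites read in shared libraries. Hmgb1 D190E was at 0.454 in 7 tumours and 0.451 in its 4 ESC libraries. The member that differed by more than 0.1 was Cthrc1 L24L, at 0.333 in 1 tumour, on 9 reads, and 0.160 in 2 ESC libraries. It was called in 1 ESC library when a base quality of at least 30 was required.

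**Figure D5:**
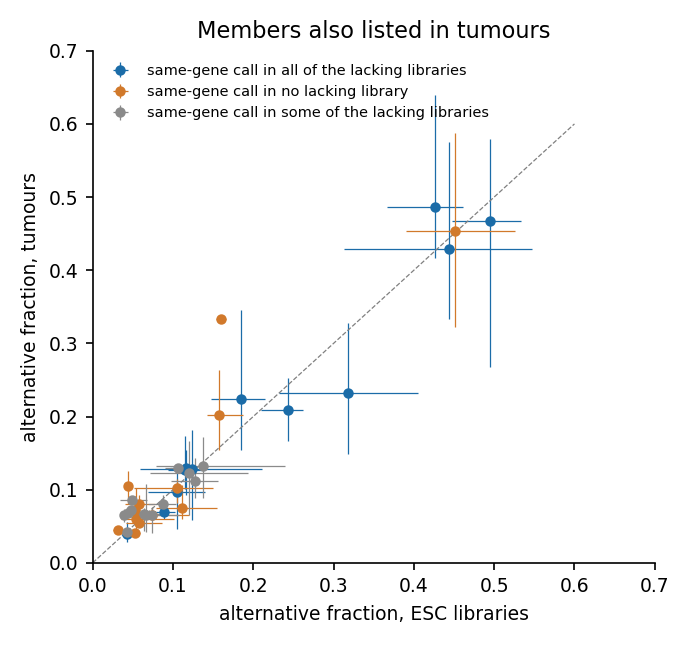
Alternative fraction of the 38 members also listed in tumours, in ESC libraries (horizontal) and tumours (vertical). Points are means and bars the lowest and highest library, coloured by whether libraries lacking the site held a same-gene call, and the dashed line is equality. The exception to the agreement within 0.1 is Cthrc1 L24L at 0.160 and 0.333.

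In some genes, sites that were mostly in separate ESC libraries were found together in tumour lists. Most complementary pairs were not: of the 67, only Fam234a had both sites in the same tumour list. Fam234a L500L and L489F were listed in the same 7 tumours, at 0.333 to 0.575 and 0.268 to 0.579. Mnd1 I65I and G58S, in a meiotic recombination gene, were listed together in 5 tumours, and 2310057N15Rik G23E and L19L in 2 of the 4 tumours that held either. The sites of these 3 genes lie within 10 kb of each other, where an ESC list holds 1 call at most. Farther apart than 10 kb, Garem C664S and R361S were together in 6 of 7 tumours and Itgad P586P and D1080Y in 4 of 6. In the ESCs, Itgad had its sites in separate libraries, and those of Garem met in SL 5. By contrast, Bclaf1 Y93H was listed in 7 tumours and V120M, 81 bp away, in 0. Dlat S353S was listed in 7 tumours, and neither K295K nor P32P in any.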

How the data were processed

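The deposited lists of the authors, 1 per ESC or tumour library, hold other kinds of value than counts per gene: per the file headers, each line is an SNV with the reads per allele, base quality and depth in the library and its control, and an annotation of gene, consequence, duplication and repeat. Per the submitters' processing notes, BWA, SAMtools and Picard were used with mm10, without versions; the SNV caller and the step that spaced the ESC lists are not given in the sources used here. The assay of the tumour lists is unsettled, since the series design names ATAC-seq for them and its title exome sequencing. The names in the headers of 2 tumour lists, 2iL-P9 and 2iL-F-P9, differ from the labels, and these were assigned by the sample each file is deposited under.

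Members, gene lists and tests were chosen with earlier results of these data known. A site is a chromosome, position, reference and alternative base, and protein changes are those of the first transcript listed. The fraction is variant reads over variant and reference reads. Intervals are 95% Wilson intervals, which treat sites, or combinations of a site and a library, as independent. Condition tests were exact permutations of library labels and paired tests exact sign changes over 1024 patterns (smallest p 0.00195), with Benjamini-Hochberg adjustment; code was tested on simulated data (Python 3.11.15, pandas 2.3.3, scipy 1.17.1). Alternatives were depth of at least 20 reads, base quality of at least 30, 3 to 8 libraries, sites outside repeats, other distances, calls in place of sites, a duplication score of at least 0.98, each library left out and the label number as a block.

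Genes were named by 8 rules: the 12 genes with most members; stop-gain members; the 10 missense members outside duplications and repeats with the highest mean fraction; members outside duplications in both libraries of 1 condition and no other; up to 15 genes outside duplications with a call in every library within 10 kb but no site in all 10; members in the cell cycle, pluripotency, DNA repair, chromatin and ribosomal lists; members outside duplications in 9 libraries with no neighbour in the tenth; and members also in a tumour. Vmn2r33 and Cox8a were chosen after their values were seen. Some results the rules would name are not reported here.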

Additional observations from a re-analysis of the deposited data

How the results depend on the processing

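Of 179 recomputed values of the comparisons, 161 kept their direction and their side of the threshold or stayed within the main interval. The share of lacking libraries with a same-gene call (49.9%) was 44.9% with at least 20 reads, 37.2% within 1 kb, 17.4% within 100 bp and 52.7% counting any gene, and 48.3 to 52.9% with each library left out. The coding minus noncoding neighbour share, over all noncoding sites, was 0.285 percentage points counting any gene. The inside minus outside fraction was 0.0072 when scores of at least 0.98 counted as inside and lower-scoring duplications as outside. The missense to synonymous ratio inside duplications was 3.60 over members with no neighbouring call in the gene, an alternative added after seeing the data. With each library left out, the difference in sharing ranged from 0.0158 to 0.0525, and the p of the duplication share (exact permutation F test) from 0.0317 to 0.421. The cause of these changes was not tested, beyond what narrower windows and fewer sites imply.

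Deviations of libraries with the same label number, 3 or 5, correlated at -0.155 to 0.0830 over 10 pairs of conditions. Such values cannot settle whether same-numbered libraries were handled together. With the number as a replicate block, sharing kept its difference of 0.0301 at an exact permutation p of 0.192, and the exact permutation p was 0.383 for member calls, 0.667 for the fraction, 0.508 for the protein-changing share and 0.192 for the duplication share.

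Of 120 named members, 8 changed their number of libraries by over 1.5 times with at least 20 reads or a base quality of at least 30. Gata6 D163E, Rrbp1 A1357D, Dlat P32P and Las1l E554E were then called in 0 libraries, Ezh1 C310F, Arpp21 T390M and Cthrc1 L24L in 1 and Vmn2r34 N261K in 3.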
